A study of Equus caballus with 68 samples.

Results

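The genes described here are 10 components of the interleukin-1 system, taken by name: the agonists IL1A and IL1B, the receptor antagonist IL1RN, the signaling receptor IL1R1 with its accessory chain IL1RAP, the decoy receptor IL1R2, the related cytokine IL18 with its soluble inhibitor IL18BP, and the inflammasome genes CASP1 and NLRP3. All 10 were found, each on 1 row, among the 30371 genes listed. Of those genes, 24065 had a value over 0 somewhere in the series and 14570 were expressed highly enough to be tested. All 10 passed that filter, although IL1A did so with 15 libraries at or above 0.5 units and the other members with at least 64 of 68.

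Bone marrow mononuclear cells (BMNC), the density gradient fraction of marrow that holds monocytes, lymphocytes and immature myeloid cells, were taken from 8 adult Thoroughbred horses, 6 geldings and 2 females aged 3 to 9 years. RNA was sequenced from the uncultured cells (0 hours, 8 libraries) and from cells of the same horses kept in undiluted fluid from their own joints for 48 hours, 96 hours, 6 days or 10 days. The fluid was either normal synovial fluid (SF), from healthy middle carpal joints, or inflamed synovial fluid (ISF), from radiocarpal joints of the same animals in which synovitis had been induced with lipopolysaccharide. Each horse gave 1 library for a fluid and time, which came to 8 libraries per fluid at 96 hours and 6 days and to 7 at 48 hours (none for Moon) and at 10 days (none for Flash), and no culture without joint fluid was included. The design asks how the cells responded to an inflamed against a normal joint environment, and how each culture changed over time. The model is a bulk culture: all cells recovered from the wells entered the RNA, and ISF differed from SF in both the joint of origin and the inflammation.

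IL-1α and IL-1β start an inflammatory response by binding IL1R1, which then recruits IL1RAP to pass the signal on. The antagonist IL1RN occupies IL1R1 without signaling, and IL1R2 binds the agonists but lacks a signaling domain, so both act as brakes. NLRP3 assembles an inflammasome that activates caspase-1 (CASP1), the enzyme that cuts the precursors of IL-1β and IL-18 into their secreted forms, and IL18BP neutralizes IL-18 outside the cell. Transcript levels therefore describe the supply of these components and not the cytokine released.

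Levels are given in GeTMM, a read density corrected for gene length and for library composition, so that genes can be compared with each other as well as across samples. Each group is given as the lowest, the median and the highest library. Differences between groups were tested with limma on log2(GeTMM + 1), two-sided, with a Benjamini-Hochberg false discovery rate (FDR) over all 14570 tested genes, and a gene was called at an FDR under 0.05. Log2 differences and folds are on the log2(GeTMM + 1) scale, which understates the change of genes near 0, and are followed by their standard error (SE).

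Libraries differed in ways that touch these results. Reads recovered on genes ranged from 15.7 M to 36.0 M per library, with a median of 22.3 M. Over 200 genes that separate the horses, 66 of 68 libraries were closest to other libraries of the labelled horse, but the ISF library at 96 hours labelled Dealings was closest to Dreamer (r = 0.958, against -0.26 with its own name), and the one labelled Dreamer was closest to Dealings (r = 0.922, against -0.18). The SF library of Moon at 6 days had 2763 tested genes at 0, against 360 to 1169 in the other libraries. Calls of a member that were lost without these 3 libraries, and the ratios that use them, are given with and without them, and counts of horses follow the labels.

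The cell makeup of the cultures moved as well. The mean log2(GeTMM + 1) of 7 macrophage markers had a median of 3.94 before culture, and at 10 days it was 10.9 (ISF) and 10.6 (SF). All 7 were higher after 48 hours in both fluids. The 3 markers found of the mature neutrophil list, CSF3R, MMP25 and LTF, had a median of 10.2 before culture, and of 2.84 (ISF) and 5.24 (SF) at 10 days. Their own medians before culture were 637, 313 and 10095 GeTMM. Against SF, ISF cultures at 10 days were lower in 5 of 5 T cell markers, 4 of 4 B cell markers, 2 of 3 mature neutrophil markers, 2 of 5 neutrophil precursor markers and 5 of 5 stromal markers, with 0 of 4 erythroid markers called, and higher in 1 of 7 macrophage markers and in 3 of the 4 rows of monocyte markers. The monocyte rows were 2 of CD14 and those of VCAN and CCR2, as FCN1, S100A8 and S100A9 were not found. CD14 was low at 10 days, with medians of 4.35 and 2.05 GeTMM in ISF and 1.50 and 0.515 in SF. The median of CCR2 was lower in ISF (5.05) than in SF (8.05). The stromal list differed between horses within SF, from a mean of 0.104 in Moon to 9.39 in Lurie at 10 days, where COL1A1 reached 1359 GeTMM. In bulk RNA, fewer cells of a type and less RNA per cell cannot be told apart, and the part of these shifts in the results for the IL-1 system was not tested.

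**Figure D1:**
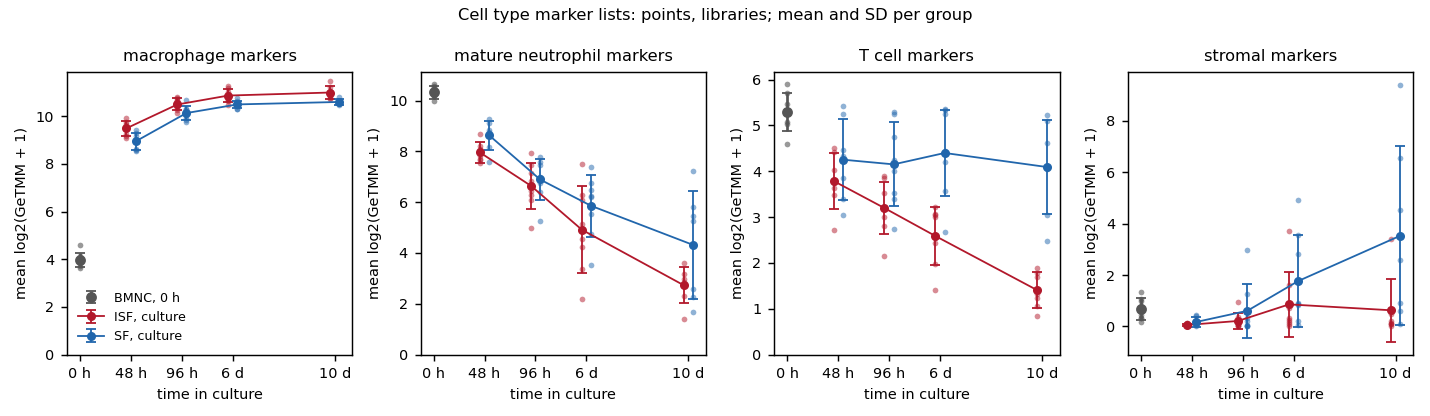
Mean log2(GeTMM + 1) of the macrophage, mature neutrophil, T cell and stromal marker lists against time in culture, with 1 point per library and the mean and SD per group (gray, BMNC at 0 hours, red, ISF, blue, SF). Macrophage markers were high in both fluids from 48 hours on, T cell markers parted, with medians of 4.12 in SF and 1.32 in ISF at 10 days, and stromal markers spread between horses in SF.

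IL1B, the main agonist made by myeloid cells, was present at 8.36, 14.9 and 20.2 GeTMM (lowest, median and highest of 8 horses) in uncultured BMNC. ISF cultures had 9.14, 25.4 and 39.1 (48 hours), 2.61, 7.21 and 9.72 (96 hours), 1.13, 2.36 and 3.05 (6 days) and 0.0688, 0.562 and 2.69 (10 days). In SF the values at the same 4 times were 6.50, 27.1 and 39.6, then 3.62, 9.95 and 14.6, then 1.13, 2.84 and 6.08, and finally 0.335, 1.85 and 5.01. The ranges of the fluids overlapped at every time point, and in both fluids the 10 day libraries all lay below the 0 hour libraries.

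From 0 hours to 10 days IL1B fell by 3.09 on the log2 scale in ISF (SE 0.32, FDR = 4.05e-13, limma), 8.52-fold, and by 2.42 in SF (SE 0.32, FDR = 1.27e-09), 5.36-fold, and it was lower in 7 of 7 horses in each. Both changes share the 0 hour libraries, as do all changes from 0 hours below, and are given side by side only. The fall was stepwise: from 48 to 96 hours IL1B fell by 1.52 in ISF and 1.37 in SF, and from 96 hours to 6 days by 1.39 and 1.33, each in every horse with both time points, as labelled. The last of these in SF was not called without Moon, without RimRun or in the fit of only the groups compared, with an FDR of up to 0.0661. The ISF library labelled Dreamer at 96 hours (2.61 GeTMM), closest to Dealings, lay below Dealings at 6 days (3.05). The other ISF libraries at 96 hours, at 6.29 or more, lay above all at 6 days. The rise in SF from 0 to 48 hours, 0.78 (SE 0.32), passed with an FDR of 0.043 but was lost in 10 of 20 alternatives, where the FDR reached 0.14, and Flash went the other way. IL1B did not pass the test between the fluids at any time point: the log2 difference of ISF over SF at the 4 times was -0.19, -0.34, -0.40 and -0.67, with FDRs of 0.87, 0.559, 0.35 and 0.151.

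IL1A, the agonist that also acts from the cell surface and from dying cells, was near the detection limit throughout. It had between 0 and 120 reads per library and was above 0 in 54 of 68. Medians were 2.5 reads at 0 hours, then 26, 9.5, 8 and 1 in ISF and 15, 4, 1 and 0 in SF at the 4 time points. At 48 hours the ISF libraries spanned 0.279, 0.941 and 3.46 GeTMM, with Ollie highest, and lay above all 0 hour libraries, whose highest was 0.158. The rise from 0 to 48 hours in ISF was 0.94 (SE 0.17, FDR = 2.45e-06), higher in 7 of 7 horses, and it was called in all 19 alternatives that tested it. The fall in ISF from 48 to 96 hours, 0.64 (FDR = 0.00344), was not called in 4 alternatives, among them those without Dreamer and without Ollie, where the FDR reached 0.0893. In SF the rise over the first 48 hours was 0.39 (SE 0.17, FDR = 0.0461), with Dealings at 0, and the FDR was 0.0517 with horse as a block. Between the fluids, IL1A differed by 0.55 at 48 hours (FDR = 0.0804) and did not pass the test at any time point.

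**Figure D2:**
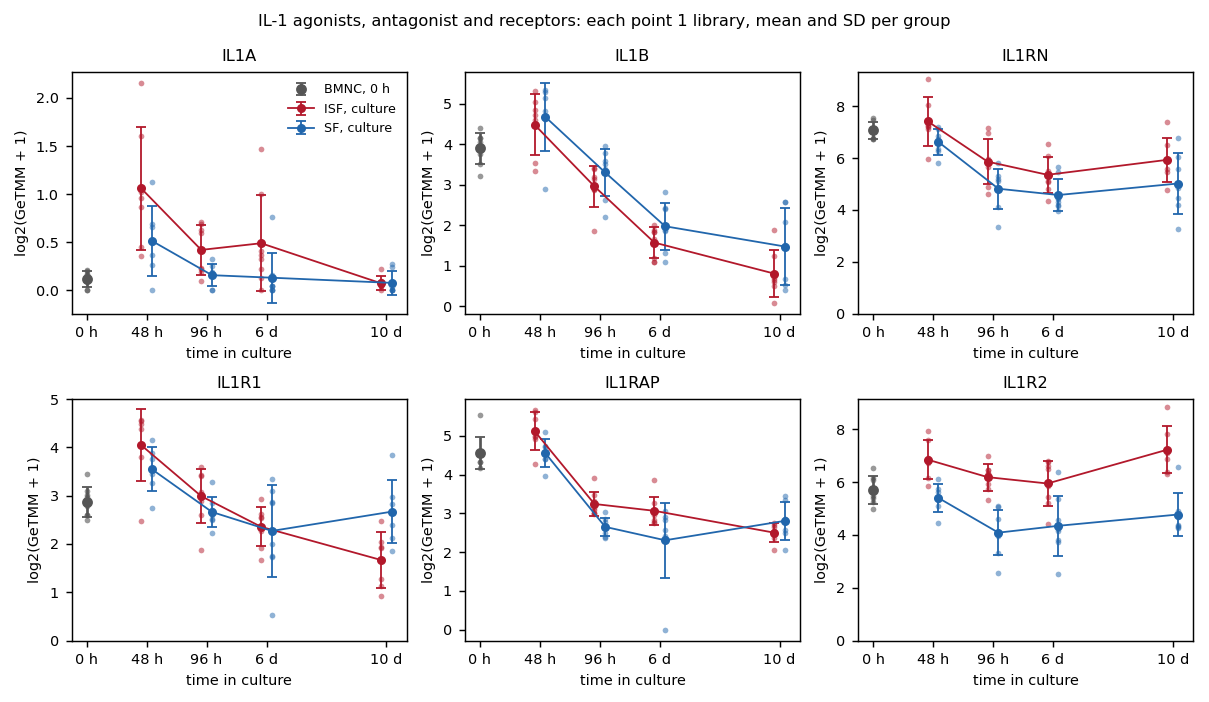
log2(GeTMM + 1) of IL1A, IL1B, IL1RN, IL1R1, IL1RAP and IL1R2 against time in culture, with 1 point per library and the mean and SD per group (gray, BMNC at 0 hours, red, ISF, blue, SF). IL1B fell in both fluids after 48 hours, and IL1R2 stayed higher in ISF, with medians of 136 GeTMM in ISF and 19.8 in SF at 10 days.

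IL1RN, which encodes the receptor antagonist, was the member with the highest level in uncultured BMNC, at 105, 133 and 187 GeTMM, and its range there overlapped none of the other members. ISF cultures had 62.0, 152 and 526 (48 hours), 23.7, 55.3 and 143 (96 hours), 19.2, 37.2 and 91.7 (6 days) and 26.1, 57.9 and 169 (10 days). In SF it stood at 55.4, 107 and 145, then 9.01, 31.3 and 55.8, then 14.5, 19.6 and 49.2, and finally 8.70, 28.0 and 108. The highest value, 526, was that of RimRun, and the ranges of the fluids overlapped at all 4 time points.

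IL1RN fell from 48 to 96 hours in both fluids, by 1.56 in ISF (SE 0.39, FDR = 0.0027) and by 1.80 in SF (SE 0.39, FDR = 0.000284), lower in 7 of 7 horses each. From 0 hours to 10 days the change was -1.13 in ISF (FDR = 0.00842), with Dealings the other way, and -2.05 in SF (FDR = 6.91e-06). The ISF change was not called without Dreamer (FDR = 0.0527). Between the fluids, ISF lay above SF in 6 of 7, 6 of 8, 7 of 8 and 6 of 7 horses in order of time, by 0.80, 1.05, 0.78 and 0.91, but none of these passed the test, with FDRs of 0.37, 0.0658, 0.116 and 0.103. With horse as a block the difference at 96 hours passed, with an FDR of 0.0341.

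Since antagonist and agonist compete for 1 receptor, their log2 ratio was compared within each horse, with a two-sided exact permutation test in which each horse's difference could change sign, and p-values adjusted over 48 tests of 4 ratios. The smallest p this design allows is 0.0156 with 7 horses and 0.00781 with 8. Uncultured BMNC held a median of 8.99 IL1RN for each IL1B, as GeTMM + 1. The median ratio in order of time was 6.12, 6.49, 14.0 and 29.1 in ISF, and in SF it was 3.43, 2.67, 4.51 and 10.2. At 10 days IL1B had a median of 0.562 GeTMM in ISF (15 reads) and 1.85 in SF (46 reads). The ISF median lay below the added 1, so the size of the ratio at 10 days depends on that 1. The ratio was higher in ISF than in SF by a mean within-horse log2 difference of 0.99 at 48 hours (SD 0.72, 7 of 7 horses), 1.39 at 96 hours (SD 0.66, 8 of 8) and 1.58 at 10 days (SD 1.18, 7 of 7), each with an adjusted exact p of 0.0326. At 6 days the difference was 1.18, in 6 of 8 horses, with an adjusted exact p of 0.0536. With IL1A added to IL1B the differences were 0.95, 1.34, 1.04 and 1.57, of which those at 96 hours and 10 days passed.

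Over time, the ratio of IL1RN to IL1B fell in SF from 0 to 48 hours, by 1.21 in 7 of 7 horses (adjusted exact p = 0.0326). It rose from 96 hours to 6 days in 8 of 8 horses as labelled in both fluids, by 0.88 in ISF and 1.08 in SF (adjusted exact p = 0.0326 for each). The ISF library labelled Dreamer at 96 hours (log2 ratio 3.05), closest to Dealings, lay above Dealings at 6 days (2.78). The one labelled Dealings (2.60), closest to Dreamer, lay below Dreamer at 6 days (4.20). With each horse left out in turn, 0 of the 16 fluid tests of the ratios passed. Fewer pairs raise the smallest exact p the test allows, to 0.03125 with 6 horses. As all 48 tests are adjusted together, they also raise the adjusted p of tests that keep their pairs. The ratio of IL1RN to IL1B at 48 hours without Moon is such a test. This count therefore cannot show dependence on a single horse. Without the ISF libraries at 96 hours labelled Dealings and Dreamer, the fluids differed at 96 hours by 1.32 and the ISF ratio rose to 6 days by 0.95, each in 6 of 6 horses, and neither passed (adjusted exact p = 0.0536). That is the lowest value 6 horses could give, so no ratio could pass with 6 pairs in that fit. Without the SF library of Moon, the difference at 6 days was 1.17, in 5 of 7 horses (adjusted exact p = 0.103), and the SF rise up to 6 days was 0.91, in 7 of 7 horses, and still passed (adjusted exact p = 0.0326). With IL1A added, the difference at 96 hours without the labelled pair was 1.28, in 6 of 6 horses, and did not pass (adjusted exact p = 0.0536), and that at 6 days without the library of Moon was 1.02, in 5 of 7 horses (adjusted exact p = 0.121).

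**Figure D3:**
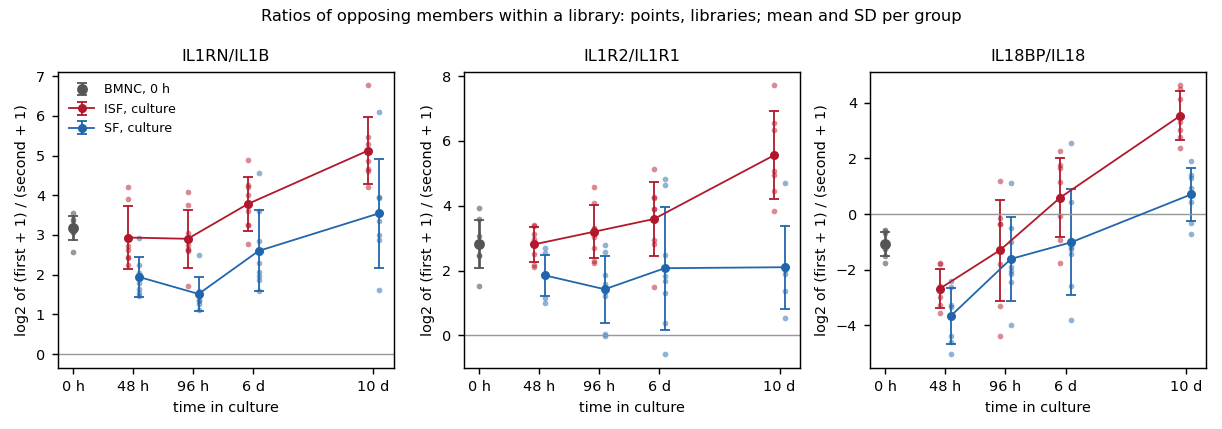
log2 ratios of IL1RN to IL1B, IL1R2 to IL1R1 and IL18BP to IL18, each from GeTMM + 1, against time in culture, with 1 point per library and the mean and SD per group (gray, BMNC at 0 hours, red, ISF, blue, SF). At 10 days the medians for IL1R2 to IL1R1 were 5.06 in ISF and 2.02 in SF.

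IL1R2, the decoy receptor, was the 1 member called between the fluids at all 4 time points. Uncultured cells held 30.3, 48.6 and 92.2 GeTMM. ISF cultures had 56.6, 108 and 246 (48 hours), 38.8, 79.3 and 126 (96 hours), 20.4, 72.2 and 111 (6 days) and 79.0, 136 and 456 (10 days). In SF it stood at 20.8, 42.1 and 68.7, then 4.95, 15.8 and 32.8, then 4.77, 17.4 and 82.5, and finally 18.3, 19.8 and 94.1. At 96 hours every ISF library lay above every SF library, and at 10 days the ranges overlapped only through RimRun, whose SF library was at 94.1 while the other 6 SF libraries were between 18.3 and 28.6.

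At 48 hours IL1R2 was 2.73-fold higher in ISF (log2 difference 1.45, SE 0.41, FDR = 0.0497, 7 of 7 horses), a call that was lost in 11 of 20 alternatives, among them those without Dealings, Dreamer, Flash, Lurie or Ollie, with FDRs from 0.00443 to 0.189. It was 4.29-fold higher at 96 hours (2.10, SE 0.39, FDR = 9.83e-05, 8 of 8 horses), 3.04-fold higher at 6 days (1.60, SE 0.39, FDR = 0.000995, 7 of 8, with Dealings the other way) and 5.49-fold higher at 10 days (2.46, SE 0.41, FDR = 8.56e-06, 7 of 7). These 3 calls held in all 20 alternatives, including the fits without the libraries in doubt and without the 10 libraries with high stromal markers, where the differences were 2.17, 1.26 and 2.87.

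IL1R2 ended above its 0 hour level in ISF and below it in SF. In ISF it rose by 1.15 from 0 to 48 hours (FDR = 0.0131), changed by -0.66 to 96 hours without passing the test (FDR = 0.27, lower in 5 of 7 horses) and rose by 1.28 from 6 to 10 days (FDR = 0.0269), and it ended 1.52 above 0 hours (SE 0.40, FDR = 0.000571, 7 of 7 horses). In SF it fell by 1.31 from 48 to 96 hours (SE 0.40, FDR = 0.00948, 7 of 7 horses) and ended 0.93 below 0 hours (SE 0.40, FDR = 0.0343, 6 of 7 horses). The last change was lost in 6 alternatives, among them those without Catnip, Dealings, Dreamer, Lurie or Ollie, with an FDR of up to 0.145, and the ISF rise from 6 to 10 days was lost in 4, among them those without Catnip, Dealings or Ollie, with an FDR of up to 0.169.

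IL1R1, the receptor that signals, was at 4.67, 6.37 and 9.84 GeTMM in uncultured cells. ISF cultures had 4.55, 19.9 and 22.7 (48 hours), 2.66, 7.36 and 11.1 (96 hours), 2.17, 4.42 and 6.65 (6 days) and 0.889, 2.77 and 4.58 (10 days). In SF it stood at 5.71, 10.9 and 16.7, then 3.71, 5.09 and 8.72, then 0.434, 4.61 and 9.13, and finally 2.61, 5.28 and 13.4. RimRun was the low library of ISF at 48 hours, Moon that of SF at 6 days, and Lurie, whose SF culture also had the highest stromal markers, was the high library at 10 days.

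IL1R1 rose in ISF over the first 48 hours by 1.17 (SE 0.30, FDR = 0.000686, all but RimRun), fell by 1.05 to 96 hours (FDR = 0.00707) and ended 1.21 below 0 hours (SE 0.30, FDR = 0.000239, 7 of 7 horses). In SF the rise to 48 hours passed only with horse as a block (FDR = 0.0288), and the fall to 96 hours, 0.88 (FDR = 0.0193), was not called without Dreamer or Ollie, with an FDR of up to 0.0915. At 10 days IL1R1 was lower in ISF than in SF by 1.00 (SE 0.31, FDR = 0.0135) in 7 of 7 horses. That call was lost without Dealings (FDR = 0.0613), without Lurie (FDR = 0.0613) and without the libraries with high stromal markers (FDR = 0.0744), with differences of -0.92, -0.87 and -1.02.

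IL1RAP, the chain that IL1R1 needs to signal, fell most between 48 and 96 hours. It stood at 17.0, 22.0 and 45.2 GeTMM at 0 hours, with Ollie highest, and in ISF at 18.2, 31.2 and 50.1, then 6.98, 7.69 and 14.1, then 5.78, 6.95 and 13.7, and finally 3.13, 4.83 and 5.74. In SF it stood at 14.6, 22.7 and 33.5, then 4.11, 5.25 and 7.23, then 0, 4.62 and 7.37, and finally 3.17, 6.26 and 9.99, the 0 being that of Moon at 6 days. The 48 and 96 hour ranges did not overlap in either fluid.

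From 48 to 96 hours IL1RAP fell by 1.89 in ISF (SE 0.25, FDR = 6.68e-08) and 1.91 in SF (SE 0.25, FDR = 1.32e-08), and it ended 2.06 and 1.76 below 0 hours, lower in 7 of 7 horses each time. It was higher in ISF than in SF at 6 days, by 0.76 (SE 0.24, FDR = 0.0113) in all horses but Catnip. Without the SF library of Moon, this difference was 0.43 and was not called (FDR = 0.0643), nor was it without Lurie (0.65, FDR = 0.0606). At 96 hours IL1RAP was higher in ISF in 8 of 8 horses, by 0.59, with an FDR of 0.103.

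Set against each other, the decoy and the signaling receptor moved apart in ISF. The median ratio of IL1R2 to IL1R1, as GeTMM + 1, was 6.85 at 0 hours, 7.83, 9.03, 15.1 and 33.4 in ISF and 3.65, 2.75, 3.36 and 4.06 in SF. The mean within-horse log2 difference between the fluids was 0.95 at 48 hours (7 of 7 horses), 1.77 at 96 hours (7 of 8) and 3.46 at 10 days (SD 1.09, 7 of 7), each with an adjusted exact p of 0.0326, and 1.52 at 6 days (6 of 8, adjusted exact p = 0.0968). The ratio rose in ISF from 6 to 10 days by 2.01 and fell in SF from 0 to 48 hours by 1.03, in 7 of 7 horses each (adjusted exact p = 0.0326). Without the ISF libraries labelled Dealings and Dreamer the difference at 96 hours was 2.23, in 6 of 6 horses, and did not pass (adjusted exact p = 0.0536, the lowest that 6 horses could give). Without the SF library of Moon it was 1.82 at 6 days, in 6 of 7 horses (adjusted exact p = 0.0577).

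**Figure D4:**
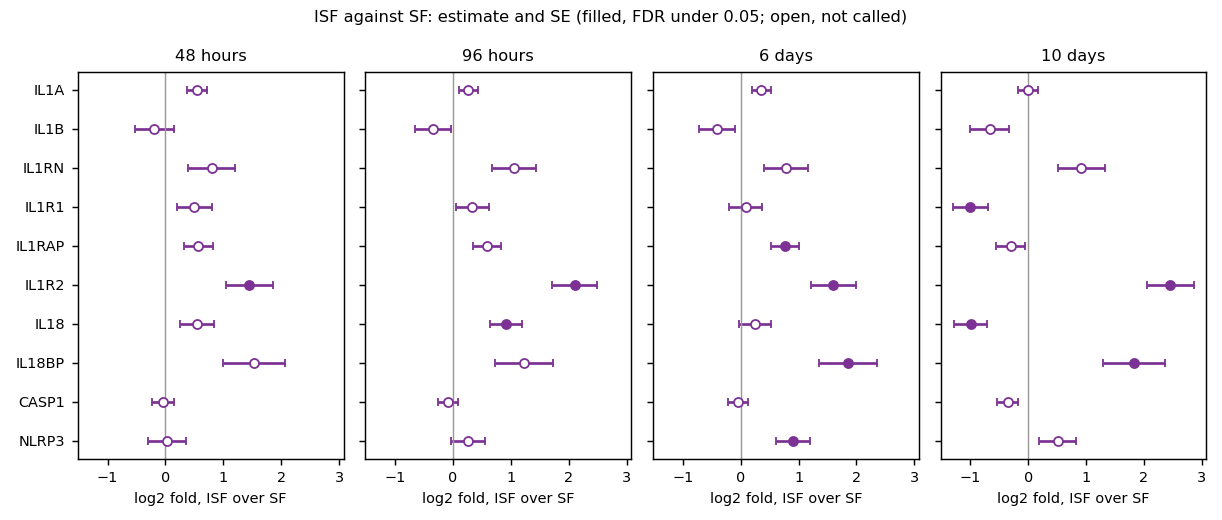
log2 difference of ISF over SF in each of the 10 members at 48 hours, 96 hours, 6 days and 10 days, with bars for the SE of the limma fit and filled points for members called at an FDR under 0.05. IL1R2 was called at all 4 time points, from 1.45 to 2.46, and IL1R1 and IL18 lay below 0 at 10 days.

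IL18, a cytokine of the same family that drives interferon gamma production, was induced in both fluids at once. Uncultured cells had 21.3, 32.9 and 47.8 GeTMM at 0 hours, and after 48 hours ISF cultures had 375, 534 and 763 and SF cultures 187, 451 and 581. It then stood in ISF at 135, 275 and 466, 78.4, 149.6 and 310.4, and 25.2, 45.5 and 84.6, and in SF at 84.3, 149 and 274, 54.9, 123 and 296, and 61.9, 93.7 and 169. All cultured libraries up to 6 days lay above all 0 hour libraries, and at 10 days this still held in SF but not in ISF.

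The rise to 48 hours was 16.4-fold in ISF (4.03 on the log2 scale, SE 0.28, FDR = 2.26e-19) and 11.2-fold in SF (3.48, SE 0.28, FDR = 1.53e-16). IL18 then fell from 48 to 96 hours by 0.96 in ISF and 1.33 in SF, and in ISF it fell again in every horse, with a change of -0.91 from 96 hours to 6 days (FDR = 0.03) and -1.67 from there to 10 days (SE 0.28, FDR = 3.43e-05). The step to 6 days was not called in 8 alternatives (FDR of up to 0.166), among them that without the ISF libraries labelled Dealings and Dreamer, and the step to 96 hours in ISF was not called without Dreamer (FDR = 0.0556). At 10 days IL18 remained 1.49 above 0 hours in SF (FDR = 4.97e-06), while in ISF the difference passed only with horse as a block (FDR = 0.0319).

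Between the fluids, IL18 changed sides. It was higher in ISF at 96 hours by 0.91 (SE 0.27, FDR = 0.0207), in 8 of 8 horses, and lower in ISF at 10 days by 1.00 (SE 0.29, FDR = 0.00941), in 6 of 7 horses with Lurie the other way. The first call was lost without the ISF libraries at 96 hours labelled Dealings and Dreamer (0.86, FDR = 0.0655), without Dealings (FDR = 0.0903) and without Lurie (FDR = 0.0604). The second was lost without Catnip (FDR = 0.0619) and without Ollie (FDR = 0.0766).

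IL18BP, the soluble protein that neutralizes IL-18, was the member with the highest median in ISF at 10 days. It stood at 10.5, 15.9 and 19.6 GeTMM at 0 hours. ISF cultures had 53.7, 62.8 and 222 (48 hours), 17.2, 188 and 349 (96 hours), 56.2, 381 and 488 (6 days) and 362, 586 and 812 (10 days). In SF it stood at 16.8, 28.9 and 47.9, then 16.5, 40.8 and 185, then 20.1, 49.6 and 325, and finally 89.2, 154 and 344. The fluids did not overlap at 48 hours and 10 days. At 96 hours and 6 days ISF libraries spread widely, with Flash and Catnip low, and RimRun was high in SF.

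Over 10 days IL18BP rose 33.8-fold in ISF (5.08 on the log2 scale, SE 0.52, FDR = 2.18e-13) and 9.54-fold in SF (3.25, SE 0.52, FDR = 1.47e-07), in 7 of 7 horses each. In the first 48 hours it rose by 2.42 in ISF (FDR = 7.57e-05). It was 3.60-fold higher in ISF than in SF at 6 days (1.85, SE 0.50, FDR = 0.00338, 8 of 8 horses) and 3.55-fold higher at 10 days (1.83, SE 0.54, FDR = 0.0101, 7 of 7). Without the libraries with high stromal markers neither was called, with differences of 1.02 (FDR = 0.202) and 1.72 (FDR = 0.12), and the call at 10 days was also lost without Dealings (FDR = 0.0687). At 48 and 96 hours the differences were 1.53 and 1.23, with FDRs of 0.132 and 0.108, and both passed with horse as a block, with FDRs of 0.0331 and 0.0333.

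The ratio of IL18BP to IL18 crossed from below to above parity in its median during culture. At 10 days the log2 ratio ran from 2.37 to 4.62 in ISF. In SF it ran from -0.72 to 1.91, with Catnip and Dealings still below 0. The median of the ratio, as GeTMM + 1, was 0.476 at 0 hours, 0.146, 0.572, 1.86 and 9.79 in ISF and 0.0998, 0.254, 0.434 and 1.89 in SF. It fell in 7 of 7 horses from 0 to 48 hours, by 1.55 in ISF and 2.53 in SF, and rose afterwards, in ISF by 1.88 up to 6 days from 96 hours and by 2.72 in the last interval, and in SF by 1.89 from 48 to 96 hours (adjusted exact p = 0.0326 for each). The fluids differed at 10 days, by a mean within-horse log2 difference of 2.82 (SD 1.09, 7 of 7 horses, adjusted exact p = 0.0326), while the differences of 0.98, 0.32 and 1.61 at the earlier time points did not pass. Without the ISF libraries labelled Dealings and Dreamer, the ISF rise from 96 hours to 6 days was 1.83, in 6 of 6 horses, and was not called (adjusted exact p = 0.0536, the lowest that 6 horses could give), and the fluids differed at 96 hours by 0.27, in 3 of 6. Without the SF library of Moon the difference at 6 days was 1.66, in 5 of 7 horses (adjusted exact p = 0.103).

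**Figure D5:**
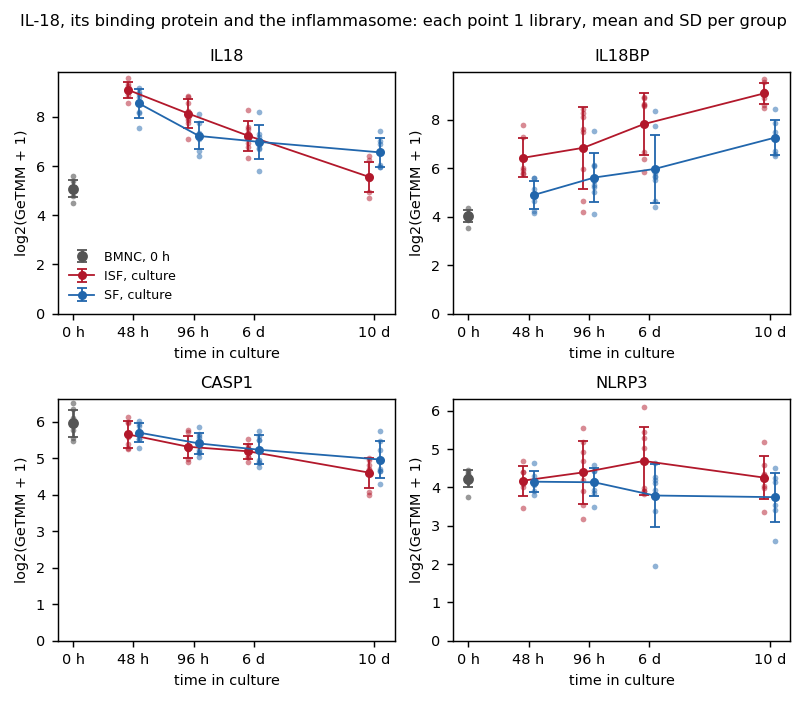
log2(GeTMM + 1) of IL18, IL18BP, CASP1 and NLRP3 against time in culture, with 1 point per library and the mean and SD per group (gray, BMNC at 0 hours, red, ISF, blue, SF). IL18 peaked at 48 hours in both fluids, IL18BP rose to medians of 586 GeTMM in ISF and 154 in SF at 10 days, and CASP1 declined in both.

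CASP1, which encodes the converting enzyme of IL-1β and IL-18, declined over 10 days in both fluids. It stood at 43.6, 61.2 and 89.9 GeTMM at 0 hours, at 37.5, 46.6 and 68.8 in ISF and 37.9, 52.5 and 63.6 in SF at 48 hours, and at 15.0, 25.3 and 31.5 in ISF and 18.8, 25.2 and 52.8 in SF at 10 days, with medians between 35.4 and 41.3 in between. The change from 0 hours to 10 days was -1.35 in ISF (SE 0.18, FDR = 1.46e-09) and -0.99 in SF (SE 0.18, FDR = 2.83e-06), lower in 7 of 7 horses each. In ISF the step from 6 to 10 days, a fall of 0.58, passed with an FDR of 0.0269 but not without Dreamer, Flash or Ollie (FDR of up to 0.119). Between the fluids CASP1 differed by -0.05, -0.09, -0.04 and -0.36 at the 4 time points, with an SE of 0.18 to 0.19, and was not called.

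NLRP3, the sensor of the inflammasome, kept its median between 12.5 and 23.4 GeTMM in all 9 groups. It stood at 12.6, 18.4 and 20.8 at 0 hours, and was most spread in ISF at 6 days, at 13.3, 23.4 and 67.9, where Flash, Catnip, Dealings and Dreamer lay between 32.0 and 67.9 and the other 4 horses between 13.3 and 14.8. The SF libraries at 6 days stood at 2.83, 15.4 and 23.9, with Moon lowest. NLRP3 was higher in ISF at 6 days by 0.90 (SE 0.30, FDR = 0.0168) in 6 of 8 horses. Without the SF library of Moon this difference was 0.64 and not called (FDR = 0.071), and it was lost without Dreamer (FDR = 0.0664), with library weights and with a fit of only the groups compared. No interval of NLRP3 was called in either fluid.

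Counted over the 10 members, ISF against SF called 1 at 48 hours, where 1.68% of all tested genes were called and 0.872% were higher, and 2 at 96 hours, where the shares of all genes were 10.5% and 6.16%. It called 4 at 6 days, against 30.2% of all genes called and 16.7% higher, and 4 at 10 days, against 20.8%. All members called up to 6 days were higher in ISF, and at 10 days 2 were higher and 2 lower. The share of members called was 10%, 20%, 40% and 40%, which at 6 days was near that of all genes. The median log2 difference of the members was 0.55, 0.46, 0.56 and -0.15, against -0.02, 0.00, 0 and -0.02 over all tested genes. With horse as a block 2, 4, 4 and 4 members were called.

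Over the intervals in ISF, 5 members were called from 0 to 48 hours, all higher, where 52.7% of all genes were called and 25.3% were higher. From 48 to 96 hours 6 were called, all lower (19.0% of all genes called, 10.4% lower), and from 96 hours to 6 days 2 were, both lower (6.38% called, 3.54% lower). In the last interval 3 were called, 1 of them higher (10.5%). In SF, 3 were called at first, all higher (45.4% called, 22.3% higher), then 6, all lower (27.3% called, 15.8% lower), then 1, lower (2.05% called, 1.61% lower). From 6 to 10 days limma called 0 in SF (4.78% of all genes), where 2 members had an unadjusted p under 0.05. From 48 to 96 hours the members had a median log2 change of -0.81 in ISF and -1.10 in SF, against 0.01 and 0.02 over all tested genes. From 0 hours to 10 days 7 members were called in each fluid, 2 higher and 5 lower, where 74.5% of all genes were called in ISF and 69.6% in SF.

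Whether the gap between the fluids itself changed was tested with an interaction term. From 48 hours to 10 days, 2 members were called, where 2.99% of all genes were called and 1.41% were lower: the difference of ISF over SF fell by 1.50 for IL1R1 (SE 0.43, FDR = 0.0387) and by 1.55 for IL18 (SE 0.41, FDR = 0.0233). The IL1R1 change was lost in 10 of 20 alternatives, with an FDR of up to 0.15, and the IL18 change without Catnip, Dealings, Dreamer or Ollie, with an FDR of up to 0.107. Between neighbouring time points limma called 0 members, with 0, 0 and 3 at an unadjusted p under 0.05 (0.0206%, 0.00% and 0.226% of all genes were called), and horse as a block added IL18 from 6 to 10 days (FDR = 0.0457). The change of the IL1R2 gap over time was not called, although the gap itself was.

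Other genes of the pathway were counted from 4 lists, to be read against the 1.68%, 10.5%, 30.2% and 20.8% of all tested genes called between the fluids in order of time. Of 14 other IL-1 family ligands and receptors, 5 passed the filter. None was higher in ISF, and the number lower was 0, 1, 1 and 3 at the 4 time points. At 10 days the 3 were SIGIRR, an inhibitory receptor of the family, IL1RL1, the receptor for IL-33, and IL18RAP, the accessory chain of the IL-18 receptor, and the list's median log2 difference was -0.55, against -0.02 over all genes. Part of this list was near the detection limit: IL1RL1 reached 0.5 GeTMM in 12 of 68 libraries and IL1RL2, also among the 5, in 13. SIGIRR stood at 1.41, 3.25 and 4.49 GeTMM in ISF at 6 days and at 4.04, 8.58 and 22.6 in SF, a log2 difference of -1.29 (SE 0.20, FDR = 8.18e-07) in 7 of 8 horses.

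Of 17 tested inflammasome and pyroptosis genes, 0 were called at 48 hours, 2 were higher at 96 hours, 2 were higher and 3 lower at 6 days, and 2 were higher and 6 lower at 10 days. Its 5 of 17 at 6 days was near the 30.2% of all genes, and 8 of 17 at 10 days stood beside 20.8%. The list's median log2 difference was -0.16, 0.02, -0.01 and -0.38. CASP4, the caspase that senses intracellular lipopolysaccharide, stood at 144.3, 203 and 258 GeTMM in ISF at 6 days and at 73.3, 89.2 and 97.8 in SF, without overlap, a difference of 1.17 (SE 0.17, FDR = 1.38e-07). NEK7, a kinase that binds NLRP3 during its activation, was higher by 0.98 (FDR = 0.000332). It stood at 26.8, 35.7 and 45.6 GeTMM in ISF and at 2.22, 23.0 and 26.9 in SF, so a low SF value entered this difference. The lower genes at 6 days included TXNIP, a regulator of redox state, at -1.21 (FDR = 0.0172), and SERPINB1, a protease inhibitor abundant in neutrophils, at -1.03 (FDR = 0.0129). NEK7, TXNIP and SERPINB1 lost their 6 day calls in the fit of only the groups compared, with FDRs over the alternatives of up to 0.0766, 0.0894 and 0.124.

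All 18 genes for IL-1 receptor signaling were tested, and 0, 1, 5 and 0 were called higher and 0, 1, 3 and 2 lower at the 4 time points, with a median log2 difference at 6 days of 0.22. Its largest count was 8 of 18, at 6 days, beside 30.2% of all genes. IRAK2, a kinase of the receptor complex, was higher at 6 days without overlap, at 10.7, 13.5 and 22.8 GeTMM in ISF and 3.04, 6.34 and 7.94 in SF, a difference of 1.20 (SE 0.16, FDR = 2.73e-08). MYD88, the adaptor of the receptor, was higher by 0.82 (FDR = 0.00106), a call lost in the fit of only the groups compared (FDR = 0.126). It stood at 128, 164 and 201 GeTMM in ISF and at 15.6, 116 and 139 in SF, so a low SF value entered this difference. The negative regulator IRAK3 was lower by 0.68 (FDR = 0.0455, up to 0.441 over the alternatives), and TAB1, which helps to activate the kinase TAK1, was lower by 1.16 (FDR = 5.22e-05) in 8 of 8 horses.

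Of 13 tested genes that IL-1 is known to induce, 0, 1, 3 and 1 were called higher and 0, 0, 0 and 1 lower, with a median log2 difference of 0.06, 0.33, 0.27 and 0.05. The 3 of 13 at 6 days lay below the 30.2% of all genes called. The neutrophil attractant CXCL8 was the largest of the named differences, at 10.8, 38.4 and 88.0 GeTMM in ISF and 3.13, 4.85 and 24.5 in SF at 6 days, a difference of 2.42 (SE 0.45, FDR = 2.76e-05) in 8 of 8 horses, and 2.81 at 10 days (FDR = 1.28e-05, 7 of 7). The adhesion molecule ICAM1 was higher by 1.10 at 96 hours (FDR = 8.20e-05) and by 1.07 at 6 days (FDR = 2.43e-05), in 8 of 8 horses each. Beside the calls at 6 days, ISF was lower than SF in 5 of 5 T cell markers, 4 of 4 B cell markers, 4 of 5 neutrophil precursor markers and 1 of 3 mature neutrophil markers. It was higher in 3 of the 4 rows of monocyte markers and in 1 of 7 macrophage markers and lower in another, with 0 stromal markers called, and the part of these shifts in the calls was not tested. Of the monocyte rows, 2 were CD14, with medians of 5.48 and 1.83 GeTMM in ISF and 0.869 and 0.259 in SF. The median of CCR2 was lower in ISF (9.18) than in SF (17.3).

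The genes whose pattern was most like that of IL1B over the 68 libraries, among 9618 searched, were DGAT2 (Pearson r = 0.946), KCNJ15 (0.938), ILT11B (0.933) and NLRP12 (0.929). For IL1RN they were C1H15orf48 (0.794), JUNB (0.775), PDLIM7 (0.771) and H3-3B (0.761), and for IL1R2 they were FXR2 (0.704), DDA1 (0.678), CD82 (0.669) and ALDOA (0.669). These correlations are descriptions: libraries of 1 horse and time point share their source, and most genes moved with time in culture. The median of DGAT2 was 177 GeTMM before culture and, at 10 days, 1.33 (ISF) and 6.17 (SF), and that of FXR2 in the same groups was 20.2, 27.4 and 20.7.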

How the data were processed

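BMNC from 8 horses were sequenced as 68 RNA-seq libraries in 9 groups. The authors trimmed the reads (TrimGalore), mapped them to EquCab3.0 with STAR 2.7.2a and counted them per gene. The deposited values are GeTMM, an RPKM type of unit that the authors made with edgeR from reads per kilobase and TMM factors, with no logarithm taken. The table had 0 columns left unused, and the authors' own fold changes were not used. Whole reads were recovered for 24065 of 24065 genes above 0, within 0.02 reads, which gave the depths.

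Genes that reached 0.5 GeTMM in 7 or more libraries were tested on log2(GeTMM + 1) with limma 3.58.1 in R 4.3.3 (lmFit, trended eBayes), with all 68 libraries fitted together and without a horse term. Ratios were tested within horses in Python 3.11.15 with numpy 2.4.6, and both procedures were checked on simulated data. The libraries simulated for limma were independent, so that check does not cover libraries that share a horse. The labels pair the libraries by animal: the same horse in ISF and SF deviated from the group means together (median r = 0.358 over 30 pairs, against -0.05 over 196 pairs of different horses). Each value is from 1 culture per horse, so the spread between wells and that between horses cannot be told apart. The limma p-values rest on the spread between libraries within groups and treat libraries of 1 horse as independent. Those of the ratios rest on the spread of the within-horse differences.

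Members, pathway lists, markers and tests were chosen with earlier results of these data known. All 10 members are named, and from each pathway list up to 2 called genes with the highest and 2 with the lowest difference at 6 days, with the genes called at 10 days in the family list named after their values were seen. Marker lists were macrophage, monocyte, mature neutrophil, neutrophil precursor, T cell, B cell, erythroid and stromal. Pattern neighbours are the 4 genes with a mean of at least 5 GeTMM in a group and the highest Pearson r. Alternatives were another pseudocount (0.1), no filter and a strict filter (1 GeTMM in 34 libraries), a horse block, only the groups compared, library weights, median-of-ratios scaling, quantile normalization, voom on recovered reads, libraries in doubt or each horse left out, and, chosen after seeing the data, no libraries with a mean of the stromal list over 2. Sequences and positions of the genes are not reported here.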

Additional observations from a re-analysis of the deposited data

Results flagged for a closer look

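Of 126 groups of values, 14 held a library that stood apart by Dixon's test on the log2 scale, where chance gives about 1 in 20. Moon was lowest in SF at 6 days for IL1RAP (0 GeTMM, others 3.91 to 7.37) and NLRP3 (2.83, others 9.49 to 23.9), in the library with 2763 tested genes at 0, and lowest at 0 hours for NLRP3 (12.6, others 16.8 to 20.8). RimRun was highest in SF at 10 days for IL1R2 (94.1, others 18.3 to 28.6) and its log2 ratio to IL1R1 (4.72, others 0.53 to 2.15), highest in SF at 96 hours for the log2 ratio of IL1RN to IL1B (2.49, others 1.12 to 1.60) and to both agonists (2.47, others 1.12 to 1.59), and lowest in ISF at 48 hours for IL1R1 (4.55, others 12.9 to 22.7).

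IL1B was lowest in ISF at 96 hours in the library labelled Dreamer (2.61, others 6.29 to 9.72), which was closest to Dealings over the genes that separate horses, and in SF at 48 hours in Flash (6.50, others 23.6 to 39.6). IL1RAP was highest at 0 hours in Ollie (45.2, others 17.0 to 23.1) and in ISF at 6 days in Lurie (13.7, others 5.78 to 8.71). IL1A was highest in SF at 6 days in Flash (0.691, others up to 0.121) and in ISF at 10 days in Ollie (0.170, which was 4 reads).

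The difference between the fluids changed from 48 hours to 10 days for IL1R1 (-1.50, FDR = 0.0387) and IL18 (-1.55, FDR = 0.0233) by limma's interaction term. IL1R1 went from 0.50 above SF to 1.00 below it and IL18 from 0.55 above to 1.00 below. The same term called 5 of 5 T cell markers, all lower, and 0 of 4 B cell and 0 of 5 stromal markers. B cell and stromal markers were called lower in ISF at 10 days, as given above. The part of these shifts was not tested.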

How the results depend on the processing

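Of 53 calls of a member, 32 held in every alternative of the fit that tested them. Of the 11 between the fluids, 3 did, IL1R2 at 96 hours, 6 days and 10 days, and of the 40 over time, 29. A sign changed in 88 of 3582 member values, 0 of them past the threshold in either fit. IL1A rests on few reads, so its levels after 48 hours could not be resolved at this depth.

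At 48 hours the 1 member called became 0 with a pseudocount of 0.1, with no filter, with the strict filter, with median-of-ratios scaling and without the ISF 96 hour libraries labelled Dealings and Dreamer, 2 with the replicate block, with only the groups compared, with quantile normalization and without the SF 6 day library of Moon, and 4 with library weights. At 96 hours 2 became 4 with the replicate block and without that library of Moon, 5 with weights and 1 without the libraries labelled Dealings and Dreamer. At 6 days 4 became 1 with only the groups compared and 2 without that library of Moon. In ISF, 2 from 96 hours to 6 days became 1 with no filter, with only the groups compared, without the libraries labelled Dealings and Dreamer and without the stromal libraries, and 3 from 6 to 10 days became 5 with a pseudocount of 0.1. In SF, 3 from 0 to 48 hours became 1 with no filter and 5 with only the groups compared, 1 from 96 hours to 6 days became 0 with only the groups compared, and 0 from 6 to 10 days became 1 with weights. The 2 changes of the fluid difference became 1 with a pseudocount of 0.1, with no filter, with only the groups compared and without the stromal libraries. The 9 ratios called between the fluids became 0 without the stromal libraries, where 7 pairs remained at 48 and 96 hours, 4 at 6 days and 2 at 10 days. With 4 or 2 pairs no ratio could have passed. At 48 hours no library was left out. There the differences and the exact p (0.0156) stayed the same for IL1RN to IL1B and IL1R2 to IL1R1. Only their adjusted exact p moved, from 0.0326 to 0.0682, as all 48 tests are adjusted together. The causes of the other changes were not tested. The replicate block changed no call of a member between the fluids or over time beyond those given above.

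Leaving out each horse gave between the fluids, in order of time, 0 to 1, 1 to 3, 3 to 4 and 2 to 4 members called. In ISF it gave 5 to 6, 4 to 6, 1 to 2 and 1 to 3 over the intervals and 6 to 7 over 10 days, and in SF 1 to 4, 5 to 6, 0 to 1, 0 and 6 to 7. It gave 0 to 3 changes of the fluid difference and 0 of 16 ratios between the fluids, against 9 with all horses. The count of ratios cannot show dependence on a single horse, since fewer pairs raise the smallest exact p and the adjusted p of the other tests.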
